A study of Mus musculus with 16 samples.

Results

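The interferon-inducible GTPases described here are 10 genes chosen by name, Gbp2, Gbp3, Gbp7, Irgm1, Irgm2, Igtp, Iigp1, Ifi47, Tgtp1 and Tgtp2, out of 55450 genes quantified. Of the 10 genes, 9 were among the 11675 genes that averaged 1 CPM or more across the 16 libraries, and Tgtp2 was below that level. CPM is a gene's count expressed relative to a library of fixed normalized size. The RNA came from primary hepatocytes, sequenced in bulk, that were cultured overnight in serum-containing medium with insulin, transferrin and selenium. All cells were labelled Wildtype, and the labels give neither the age of the mice nor how many mice stand behind a library. The untreated cells received nothing further. The itaconate cells received 10 mM sodium itaconate, the lipid cells received a chemically defined mixture of fatty acids and cholesterol diluted 10-fold, and the lipid + itaconate cells received both. Each group held 4 libraries named by the replicate letters A to D. Unless stated otherwise, p-values measure the spread left between libraries after differences between letters are removed. That spread may be technical. The comparisons ask how a metabolite of activated macrophages changes hepatocyte gene expression with and without a lipid load.

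Interferon gamma binds a receptor that activates the kinases JAK1 and JAK2 and acts on genes through gamma-activated sites (GAS) in DNA. Type I interferons act mainly through interferon-stimulated response elements (ISRE). The immunity-related GTPases and the guanylate-binding proteins are among the genes induced in this way, in hepatocytes as in macrophages, and their proteins attack the membranes around intracellular parasites and bacteria. Irgm1, Irgm2 and Igtp (also called Irgm3) are regulators that protect the cell's own membranes from the effector GTPases. Iigp1 (Irga6), Ifi47 (Irgd) and the near-identical Tgtp1 and Tgtp2 (Irgb6) are effectors, and Gbp2, Gbp3 and Gbp7 are guanylate-binding proteins.

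On GRCm38 the genes lie in a few clusters. Irgm1 (chr11:48861968-48871683), Tgtp1 (chr11:48985327-48994172) and Tgtp2 (chr11:49057194-49064206) are on the minus strand and Ifi47 (chr11:49076587-49096974) on the plus strand of 1 stretch of 235 kb. Igtp (chr11:58199556-58207591) and Irgm2 (chr11:58199618-58222782) are annotated on the plus strand with 162 exonic bases in common. Gbp7 (chr3:142530342-142550149), Gbp3 (chr3:142560026-142573209) and Gbp2 (chr3:142620602-142638008) follow each other on the plus strand of chromosome 3, and Iigp1 lies apart from these clusters on another chromosome. Of the stretches of 50 bases in Tgtp1 transcripts, 81.2% also occur in other genes, chiefly Tgtp2, and for Tgtp2 the share is 86.6%. The deposited values split such reads by estimation, so how the counts divide between Tgtp1 and Tgtp2 is uncertain. The share was 12.7% for Gbp7, chiefly with the pseudogene Gm43802, 11.8% for Igtp, chiefly with Irgm2, and 7.77% for Irgm2. For each of the other 5 genes it was at most 3.75%. On the same strand, exons of Tgtp1 also overlap those of Gm12185 over 223 bases, and exons of Ifi47 overlap those of Olfr56 over 111 bases.

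Promoters of 9 of the 10 genes were found in RefSeq (GRCm38.p6, 250 bases before to 50 after the transcript start), and no entry was listed for Iigp1. They were searched on both strands for GAS, written TTCNNNGAA, and for the core of the ISRE, written GAAANNGAAA. A GAS match was present in 5 of the 9 genes and in 8.30% of all 32851 promoters. An ISRE match was present in 8 of the 9 genes, all but Ifi47, and in 3.44% of all promoters. The 9 genes had 10 promoter entries, and a second entry of Gbp3 held neither motif. Both motifs were present in Gbp7, Igtp, Irgm2, Tgtp1 and Tgtp2, and in 0.454% of all promoters. In Igtp, Irgm2, Tgtp1 and Tgtp2 the ISRE match followed the GAS match after 2 bases, an arrangement noticed after the promoters were read. It occurred in 5 promoters of 32851, and the remaining one belongs to Gm12185, a gene whose exons overlap those of Tgtp1. These promoters are related sequences. Aligned at the GAS over 80 positions, Igtp and Irgm2 were 96.25% identical, Tgtp1 and Tgtp2 68.75%, and the pairs across these clusters 52.5% to 60.0%. The following stretches of 80 bases show the arrangement and, for contrast, the promoters of Gbp7, where the motifs stand further apart, and of Gbp3, where 2 overlapping ISRE matches occur without a GAS. They are written 5′ to 3′ on the strand of the gene, with every base of a motif match in capitals, and a match on the opposite strand appears as its reverse complement.
Igtp, chr11:58199476-58199555, plus strand: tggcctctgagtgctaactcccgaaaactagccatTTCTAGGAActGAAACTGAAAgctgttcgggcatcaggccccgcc
Irgm2, chr11:58214872-58214951, plus strand: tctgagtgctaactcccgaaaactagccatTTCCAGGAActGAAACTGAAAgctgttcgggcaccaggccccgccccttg
Tgtp1, chr11:48992285-48992364, minus strand: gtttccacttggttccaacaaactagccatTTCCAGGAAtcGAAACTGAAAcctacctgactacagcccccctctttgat
Tgtp2, chr11:49064244-49064323, minus strand: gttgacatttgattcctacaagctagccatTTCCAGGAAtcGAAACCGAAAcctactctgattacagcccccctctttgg
Gbp7, chr3:142530221-142530300, plus strand: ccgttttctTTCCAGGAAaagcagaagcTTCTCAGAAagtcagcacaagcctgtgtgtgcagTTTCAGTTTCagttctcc
Gbp3, chr3:142559964-142560043, plus strand: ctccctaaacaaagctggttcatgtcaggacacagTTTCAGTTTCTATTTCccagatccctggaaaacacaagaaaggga
A match describes letters in a window and says nothing of binding in these cells.

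Library totals ran from 22346049 to 35512004 expected counts, and the share of mitochondrial counts from 3.27% to 6.01%, the highest being lipid + itaconate replicate C. Lipid + itaconate replicate B stood apart from the other libraries of its group: it differed from them by a chi-square per gene of 106 to 147, where counting error alone gives about 1, against at most 64.5 for any other pair of libraries of 1 group. The 10 hepatocyte markers summed to between 48831 and 75263 CPM in every library, so the labelled cell type was borne out by its markers. The 10 macrophage and Kupffer cell markers summed to 160 to 328 CPM, most of it Cd68. The 10 T and NK cell markers summed to 0.517 to 2.15 CPM, with Ccl5 the only one at a mean of 1 CPM or more and Nkg7 at 0 in all libraries. The 8 endothelial markers summed to 13.6 to 27.7 CPM and 8 stellate cell markers to 16.3 to 25.6 CPM. The 6 cholangiocyte markers, of which Spp1 and Sox9 were at 1 CPM or more, summed to 336 to 1171 CPM.

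In untreated hepatocytes, levels were compared between genes per kilobase of exon. Iigp1 (plus strand of chromosome 18, from 60376027 to 60392634) was the most abundant, at 112 ± 17.3 CPM per kb (SD, n = 4), followed by Igtp at 88.3 ± 22.5, Irgm2 at 59.6 ± 11.8 and Irgm1 at 43.2 ± 8.76 CPM per kb. Neighbours in this order overlapped in their ranges. All 4 libraries were higher for Irgm1 than any library for Ifi47, which was at 22.9 ± 4.59 CPM per kb. Tgtp1 (16.7 ± 5.40), Gbp3 (13.1 ± 3.51), Gbp7 (10.5 ± 2.99) and Gbp2 (10.1 ± 3.52) followed with overlapping ranges in CPM per kb. Tgtp2, at 0.567 ± 0.0925 CPM per kb, was below all of them, with 29 to 55 counts a library. In untreated cells, replicate letters moved the genes together: D was highest for 8 of the 9 tested genes, and B was lowest for 7. With both agents D was highest for 6 and B lowest for 7. The order was not the same in the other groups: with itaconate A was highest for 5 and B lowest for 5, and with lipid D was highest for 5 and C lowest for 6. The highest untreated library was 1.40 to 2.18 times the lowest, depending on the gene.

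Itaconate alone lowered most of the GTPases. Of the 9 genes tested, 8 were lower in itaconate-treated than in untreated hepatocytes at an adjusted p under 0.05 and 0 were higher, against 2.95% of all genes called lower and 1.96% called higher (edgeR's quasi-likelihood test with treatment and replicate letter in 1 model of all 16 libraries, Benjamini-Hochberg over the 11675 genes). The median log2 fold change was −0.62 over the 9 genes and −0.00 over all genes tested. All 9 genes were lower in each of the 4 letters. Because the letters differed in level, the groups overlapped for each of the 9 genes, while 3.86% of all genes had every itaconate library below every untreated one.

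Tgtp1, an effector GTPase, was at 59.9, 34.0, 46.3 and 74.1 CPM in untreated libraries A to D and at 35.0, 16.9, 18.04 and 31.8 CPM in the itaconate libraries A to D. Of the itaconate libraries, 3 were below the lowest untreated library, and A was just above it. It fell by 52.8%, the largest change among the 9 genes tested, or −1.08 on the log2 scale (standard error or SE 0.12, adjusted p = 0.000120 in edgeR). Its copy Tgtp2 was at 1.36, 1.58, 2.01 and 1.71 CPM in untreated and 0.689, 0.517, 0.452 and 0.893 CPM in itaconate libraries. These groups did not overlap, and in a model without the filter on low counts the log2 fold change was −1.41 (adjusted p = 0.000309 in edgeR). With edgeR's filterByExpr, which also keeps Tgtp2, the adjusted p was 0.0532, so this call depends on the filter. Without a filter, p-values could be far lower than in the main fit (for Tgtp1, adjusted p = 1.99e-43 against 0.000120 in edgeR). The unfiltered fit may therefore understate the spread of single genes. When the counts of both copies were summed before the fit, the log2 fold change was −1.09 (adjusted p = 8.69e-05 in edgeR).

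Among the guanylate-binding proteins, Gbp2 was at 37.5, 19.1, 18.5 and 26.8 CPM in untreated libraries A to D and at 20.2, 12.5, 8.74 and 12.4 CPM with itaconate. The fall was −0.93 on the log2 scale (SE 0.11, adjusted p = 0.000148 in edgeR). Gbp3 fell from 42.8 ± 11.4 to 24.4 ± 6.01 CPM (SD, n = 4), which is a log2 change of −0.80 (adjusted p = 0.000182 in edgeR). Gbp7 fell from 58.8 ± 16.8 to 37.8 ± 7.73 CPM (SD, n = 4), which is a log2 change of −0.62 (adjusted p = 0.00828 in edgeR). The remaining effector called, Ifi47, fell from 56.7 ± 11.3 to 35.96 ± 8.21 CPM (SD, n = 4), with a log2 fold change of −0.66 (adjusted p = 0.00380 in edgeR).

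The regulators fell less in size than Tgtp1 and Gbp2. Igtp was at 161, 129, 187 and 237 CPM in untreated libraries A to D and at 108, 85.4, 116 and 155 CPM with itaconate. Its log2 differences within letters were closely spaced, from −0.58 to −0.69, and the fitted value was −0.62 (SE 0.077, adjusted p = 0.000281 in edgeR). Irgm1 fell from 251 ± 50.9 to 181 ± 32.8 CPM (SD, n = 4), which is a log2 change of −0.47 (adjusted p = 0.000182 in edgeR). Irgm2 fell from 220 ± 43.6 to 164 ± 30.7 CPM (SD, n = 4), which is a log2 change of −0.42 (adjusted p = 0.00268 in edgeR). Whether the fold changes of the genes differ from each other was not tested.

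Iigp1 was the exception. It was at 628, 569, 615 and 799 CPM in untreated libraries A to D and at 537, 532, 527 and 654 CPM in itaconate libraries A to D. Lower in every letter, it had a log2 fold change of −0.21 (95% confidence interval −0.37 to −0.06), which did not pass the threshold (adjusted p = 0.107 in edgeR). It was called when the model held only the 8 libraries compared (adjusted p = 0.00163), with no filter (adjusted p = 0.00471), and without untreated replicate B (adjusted p = 0.0481), all in edgeR.

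The calls for itaconate alone rested on the replicate letter. With the letter left out of the edgeR model, 0 of the 9 genes were called, beside 0.197% of all genes, against 4.91% with the letter. Their adjusted p ran from 0.106 to 0.338, although all 9 had an unadjusted p under 0.05. The share of all genes at that unadjusted level is not given. With the letter in the model, DESeq2 and limma each called the same number, 8, beside 6.78% and 5.05% of all genes. Leaving out each library in turn gave 8 or 9.

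**Figure D1:**
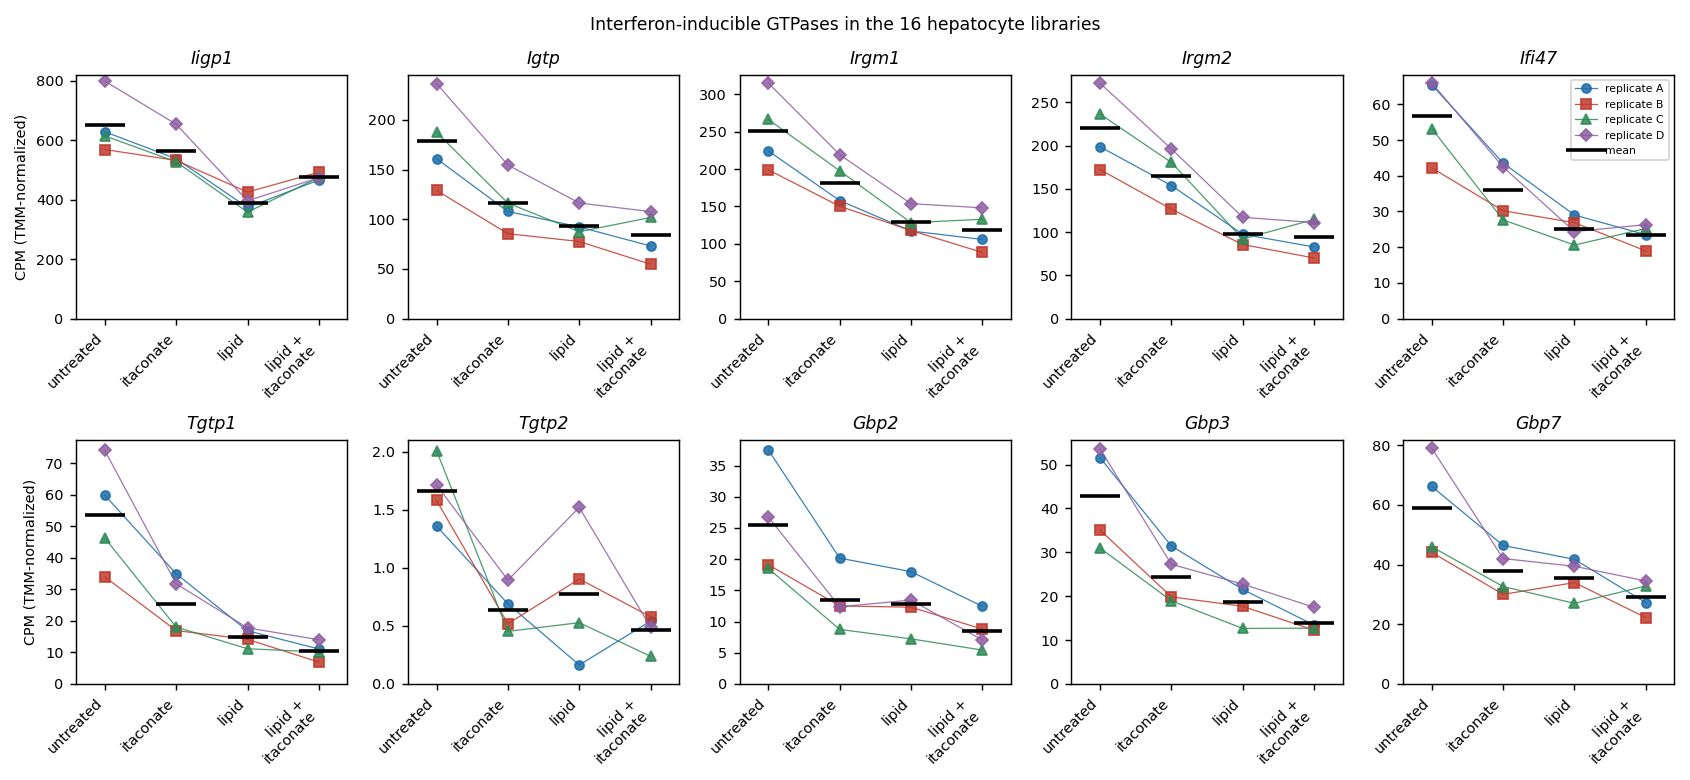
Levels of the 10 GTPases in CPM (vertical axis, from 0) in the 4 treatment groups (horizontal axis). Points are libraries joined by replicate letter, and black bars are means of 4 libraries. All lines fall from untreated to itaconate, the lipid mean is below the itaconate mean for 9 genes, and Tgtp2 is at 2.01 CPM or less throughout.

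Lipid lowered the whole set. Of the 9 genes, 9 were lower in lipid-treated than in untreated hepatocytes and 0 higher, beside 23.7% of all genes called lower and 23.8% called higher by the same edgeR test. The median log2 fold change was −1.01 over the 9 genes and 0.00 over all genes. For 9 of the 9 genes every lipid library was below every untreated library, which held for 15.9% of all genes. This comparison shares its untreated libraries with the one for itaconate alone, so their values are given side by side and are not independent.

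Tgtp1 was at 16.9, 14.1, 11.1 and 17.8 CPM in lipid libraries A to D, all below the lowest untreated library of 34.0 CPM. It fell by 71.3%, or −1.80 on the log2 scale (SE 0.13, adjusted p = 3.78e-08 in edgeR). Irgm2 fell from 220 ± 43.6 to 98.1 ± 13.6 CPM (log2 fold change −1.15), and its partner in the same cluster, Igtp, from 178 ± 45.5 to 93.4 ± 16.5 CPM (SD, n = 4, log2 fold change −0.91). Irgm1 fell from 251 ± 50.9 to 129 ± 17.1 CPM (SD, n = 4), which is a log2 change of −0.94 (adjusted p = 8.59e-09 in edgeR). Ifi47 fell by 1.15, Gbp3 by 1.19, Gbp2 by 1.01 and Gbp7 by 0.70 on the log2 scale, the last with the smallest change among the 9 genes. Iigp1 was at 374, 425, 358 and 396 CPM in lipid libraries A to D, each below the lowest untreated library of 569 CPM, with a log2 fold change of −0.74 (SE 0.074, adjusted p = 1.38e-06 in edgeR). Tgtp2 was at 0.162, 0.903, 0.527 and 1.52 CPM with lipid, on 4 to 45 counts, and its lipid and untreated groups overlapped. The model without a filter gave it a log2 fold change of −1.18 (adjusted p = 0.000730 in edgeR). With filterByExpr the adjusted p of Tgtp2 was 0.0206 in edgeR.

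The cells treated with both agents were also below those treated with itaconate. All 9 genes were called lower and 0 higher, beside 23.5% of all genes in each direction, with a median log2 fold change of −0.62 against 0.00 over all genes. Every lipid + itaconate library was below every itaconate library for 6 of the 9 genes and for 14.8% of all genes. The log2 fold changes ran from −0.23 for Iigp1 (adjusted p = 0.0171 in edgeR) to −1.25 for Tgtp1 (adjusted p = 2.76e-06 in edgeR). Gbp7 had the highest adjusted p (log2 fold change −0.36, adjusted p = 0.0253 in edgeR) and was not lower in letter C, where its level was 32.6 CPM with itaconate and 32.9 CPM with both. Without the letter in the edgeR model the count was 5 of 9, beside 34.2% of all genes. Without lipid + itaconate replicate B, Gbp7 had a log2 fold change of −0.32 (adjusted p = 0.0632 in edgeR) and the other 8 genes kept their calls. The call of Gbp7 was also lost without itaconate replicate A or C or lipid + itaconate replicate A or D, and that of Iigp1 without itaconate replicate D or lipid + itaconate replicate D (adjusted p from 0.0508 to 0.120 in edgeR).

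**Figure D2:**
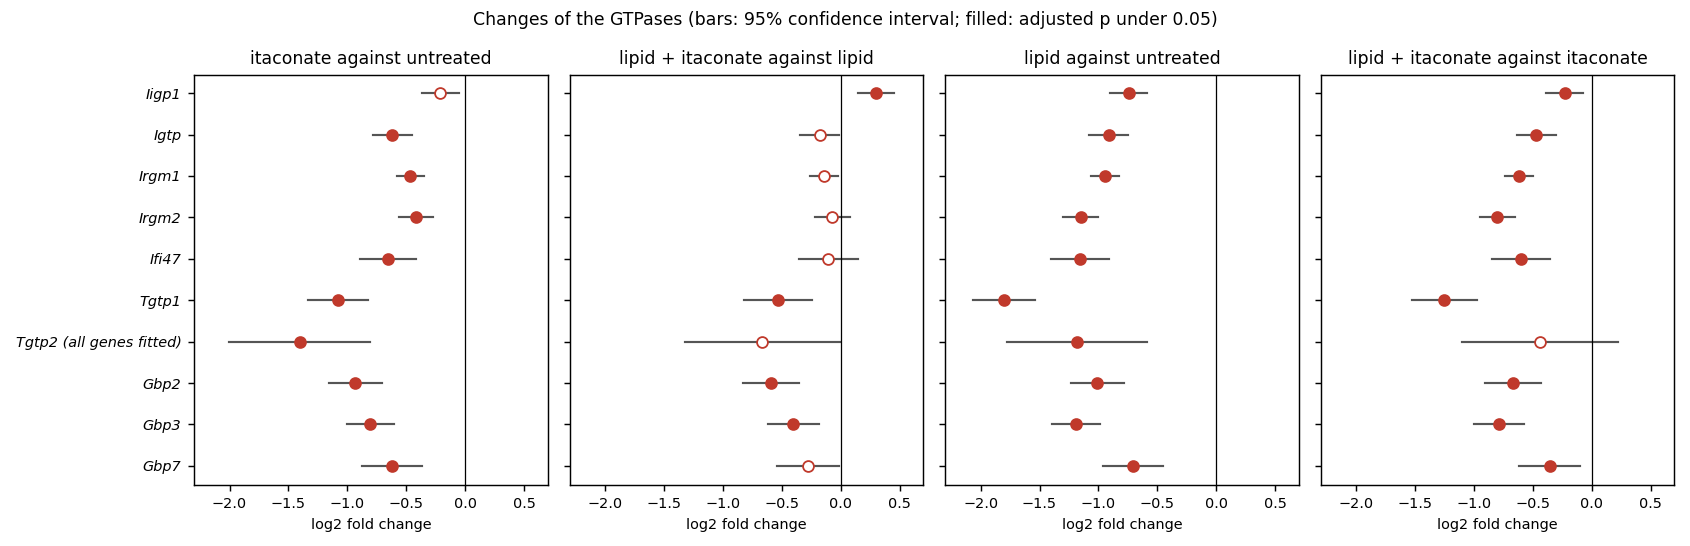
Log2 fold changes of the 10 GTPases (horizontal axes) in 4 comparisons (panels), with 95% confidence intervals as bars and filled points for an adjusted p under 0.05. Tgtp2 comes from the model without a filter. In the second panel, itaconate in the presence of lipid, 9 of the 10 points lie left of 0 but nearer to it than in the first panel, and Iigp1 lies right of 0 at 0.30, against −0.21 in the first.

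In the presence of lipid, itaconate gave differences in both directions. Of the 9 genes, 3 were lower in lipid + itaconate-treated than in lipid-treated hepatocytes, against 1.26% of all genes, and 1 was higher, against 1.32% of all genes. The median log2 fold change was −0.18 over the 9 genes and −0.00 over all genes. None of the 9 genes had every lipid + itaconate library below every lipid library, while 2.85% of all genes did.

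Gbp2 was at 17.995, 12.3, 7.22 and 13.4 CPM in lipid libraries A to D and at 12.4, 8.78, 5.42 and 7.04 CPM with both agents. It was lower in 4 of 4 letters, with a log2 fold change of −0.60 (SE 0.11, adjusted p = 0.0139 in edgeR). Gbp3 fell from 18.7 ± 4.55 to 14.0 ± 2.38 CPM (SD, n = 4), which is a log2 change of −0.40 (adjusted p = 0.0479 in edgeR), but was level in letter C at 12.6 and 12.7 CPM. Tgtp1 was at 11.1, 6.90, 10.1 and 14.0 CPM with both agents, a log2 fold change of −0.53 against lipid (adjusted p = 0.0489 in edgeR), lower in 4 of 4 letters.

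Iigp1 moved the other way. It was at 466, 492, 475 and 474 CPM in lipid + itaconate libraries A to D, and all 4 were above the highest lipid library of 425 CPM. The share of all genes separated upward in this comparison was not counted. The log2 fold change was 0.30 (SE 0.073, 95% confidence interval 0.14 to 0.45, adjusted p = 0.0441 in edgeR), a rise of 22.99%. The 4 lipid + itaconate libraries lay closer together than those of any other group, with an SD of 11.1 CPM against 29.3 to 101 CPM.

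The differences of Gbp7 (log2 fold change −0.28, adjusted p = 0.257), Irgm1 (−0.14, adjusted p = 0.203), Igtp (−0.18, adjusted p = 0.254), Irgm2 (−0.07, adjusted p = 0.640) and Ifi47 (−0.10, adjusted p = 0.694) did not pass the threshold in edgeR. Their 95% confidence intervals reached from −0.54 for Gbp7 at the lower end to 0.15 for Ifi47 at the upper end, on the log2 scale. The letters were not alike. In letters A and B, 8 of the 9 genes were lower with both agents than with lipid, in D 7 were, and in C only 2 were. Igtp illustrates this: it went from 92.2 to 73.0 CPM in A, from 77.6 to 54.7 CPM in B and from 116 to 108 CPM in D, but from 87.4 to 102 CPM in C. Without lipid + itaconate replicate C, the library with the highest mitochondrial share, Igtp was called lower (log2 fold change −0.28, adjusted p = 0.0134 in edgeR), as was Gbp7 (log2 fold change −0.45, adjusted p = 0.0118 in edgeR), and the count called in either direction was 6 of 9. That was the highest count when each library was left out in turn, which gave 0 to 6.

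These 4 calls were near the threshold. The count fell to 0 without the letter in the edgeR model (1 gene with an unadjusted p under 0.05), beside 0.0771% of all genes. With only the 8 libraries compared it was 0 (4 genes with an unadjusted p under 0.05), beside 0.111% of all genes. Shares of all genes at the unadjusted level are not given. The count called was also 0 without lipid + itaconate replicate A or without lipid replicate D. With filterByExpr it was 1, Gbp2. Shares of all genes are not given for the fits with filterByExpr or without a library. Without lipid + itaconate replicate B, the library that stood apart, Gbp2 was still called (log2 fold change −0.68, adjusted p = 0.0103 in edgeR), while Gbp3 (−0.41, adjusted p = 0.0932), Tgtp1 (−0.49, adjusted p = 0.120) and Iigp1 (0.27, adjusted p = 0.120) were not. DESeq2 and limma each called 4, beside 4.36% and 2.42% of all genes.

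**Figure D3:**
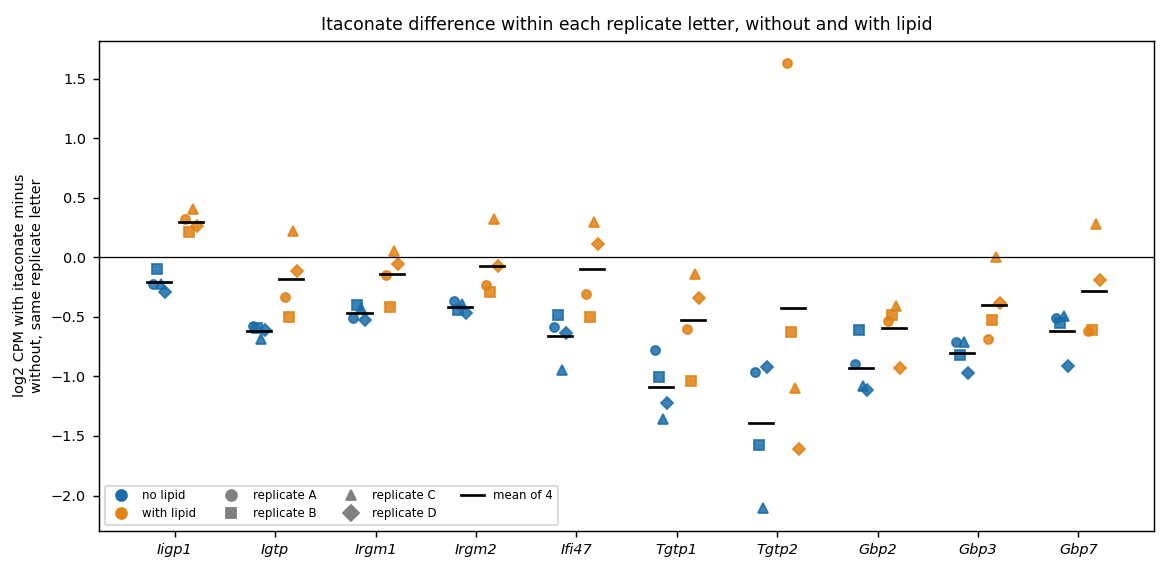
Difference in log2 CPM between cells with and without itaconate in the same replicate letter (vertical axis) for each GTPase, without lipid (blue) and with lipid (orange). Marker shapes are letters and black bars are means of 4 letters. Without lipid every point lies below 0, and with lipid triangles (letter C) are mostly the highest and the 4 points of Iigp1 lie above 0.

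Whether itaconate acted differently with and without lipid was tested as an interaction. It was positive for 9 of the 9 genes, from 0.33 (Irgm1) to 0.55 (Ifi47) on the log2 scale, with a median of 0.40 against 0.00 over all genes, so that levels with both agents were above the sum of the separate log2 changes. None of the 9 passed the threshold over all genes in edgeR, where 0.00857% of all genes did. For 8 of the 9 genes the unadjusted p was under 0.05, all but Gbp7. The share of all genes at that unadjusted level is not given, and the 9 genes vary together, so they are not independent results. Iigp1 had the lowest adjusted p (interaction 0.51, 95% confidence interval 0.29 to 0.73, adjusted p = 0.158 in edgeR) and was positive in 4 of 4 letters. Across letters the sizes differed. All 9 genes were positive in C and in D, with medians of 0.71 and 0.55 on the log2 scale, and 8 were in A and 5 in B, with medians of 0.24 and 0.09. DESeq2 called 3 of the 9, beside 0.308% of all genes, and edgeR with no filter called 8, beside 0.918% of all genes, whereas limma called 0 with 8 at an unadjusted p under 0.05. The p-values with no filter may understate the spread of single genes: for Iigp1 the adjusted p was 1.46e-08 there, against 0.158 in the main edgeR fit.

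Summed over the 10 genes, the level was 1541 ± 282 CPM in untreated hepatocytes and 1162 ± 158 CPM with itaconate (SD, n = 4). Lipid gave 817 ± 64.9 CPM, and lipid with itaconate 861 ± 77.8 CPM (SD, n = 4). The part of this sum that was Iigp1 was 42.5 ± 2.14% in untreated cells and 48.6 ± 2.92% with itaconate (SD, n = 4). With lipid it was 47.6 ± 3.58%, and with both agents 55.8 ± 5.89% (SD, n = 4). The ranges of the untreated (40.9% to 45.7%) and itaconate groups (46.7% to 53.0%) did not overlap. Those of the lipid (43.9% to 52.4%) and lipid + itaconate groups (50.4% to 63.5%) did. In the combined treatment, the share ran from 50.4% in letter D to 63.5% in letter B. These shares are computed from the same levels as the fold changes above and are not separate evidence.

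**Figure D4:**
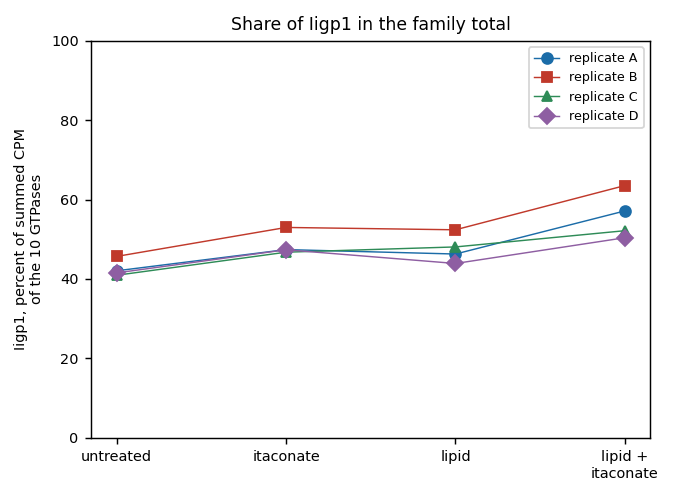
Share of Iigp1 in the summed CPM of the 10 GTPases, in percent (vertical axis, from 0 to 100), by treatment group (horizontal axis), with libraries joined by replicate letter. Within each letter the share is higher with itaconate than without it, both without lipid and with lipid, and letter B is highest in all 4 groups.

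How alike the genes were across libraries was described by correlating log2 CPM over the 16 libraries after the mean of each letter had been subtracted. The points share treatments and libraries and are not independent. The median correlation of a gene with the other 8 tested GTPases was 0.90 to 0.97 for all but Iigp1, for which it was 0.78. The highest was between Irgm1 and Irgm2 (0.99) and the lowest between Iigp1 and Gbp2 (0.65). Genes outside the set were ranked by their correlation with the mean of the 9 genes, so the high values of those named follow from the choice. Among the highest were Dtx3l (0.991), Parp9 (0.990), Samd9l (0.989), Apol9a (0.986), Trex1 (0.986), Parp12 (0.985) and Ifitm3 (0.985).

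Other GTPases, of the same families and beyond them (Mx1, Mx2 and Gvin1), gave a similar picture in part. Of 19 listed, 12 were tested, and Gbp2b, Gbp4, Gbp5, Gbp8, Gm4841, Gm5431 and Irgc1 were too low. With itaconate alone, 3 of the 12 were lower and 0 higher, beside 2.95% and 1.96% of all genes. Gbp6 fell from 78.2 ± 19.6 to 55.3 ± 9.30 CPM (SD, n = 4, log2 fold change −0.49, adjusted p = 0.00348 in edgeR). Gbp9 fell from 5.12 ± 1.77 to 2.74 ± 1.07 CPM (SD, n = 4), which is a log2 change of −0.88 (adjusted p = 0.0456 in edgeR), and Mx2, an antiviral dynamin-like GTPase, had −0.27 (adjusted p = 0.0317 in edgeR). With lipid, 8 of the 12 were lower and 1 higher, beside 23.7% and 23.8% of all genes. Gvin1, a very large interferon-inducible GTPase, went from 277 ± 57.1 to 89.1 ± 26.4 CPM (SD, n = 4, log2 fold change −1.65, adjusted p = 6.82e-07 in edgeR), whereas Irgq rose by 0.58 on the log2 scale (adjusted p = 2.96e-07 in edgeR). Against lipid, lipid + itaconate changed 0 of the 12 at the threshold in edgeR. Between both agents and itaconate, 8 were lower and 3 higher, beside 23.5% of all genes each way.

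Of 21 genes of interferon signalling, 18 were tested. Interferon gamma itself, Ifng, had 0 counts in all 16 libraries, which allows up to 0.134 CPM in the smallest library (3 counts, counting error only), and Ifnb1 and Ciita were below the filter. The receptor chain Ifngr1 was at 123 ± 14.6 CPM in untreated cells, 126 ± 16.8 CPM with itaconate, 119 ± 7.86 CPM with lipid and 122 ± 9.34 CPM with both (SD, n = 4), with log2 fold changes between −0.04 and 0.04 that did not pass the threshold.

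With itaconate alone, 3 of the 18 were lower and 0 higher, beside 2.95% and 1.96% of all genes: Irf7 (−0.59, adjusted p = 0.00153), Irf9 (−0.18, adjusted p = 0.0366) and Usp18, a feedback inhibitor of type I interferon receptors (−0.72, adjusted p = 1.31e-06), all as log2 fold changes in edgeR. The transcription factor Irf1 was at 65.5 ± 5.05 CPM in untreated and 61.5 ± 3.27 CPM in itaconate-treated cells (SD, n = 4), a difference that did not pass (log2 fold change −0.09, adjusted p = 0.407 in edgeR). With lipid, 13 of the 18 were lower and 1, Ifnar1, higher, beside 23.7% and 23.8% of all genes. The lower genes included Irf1 (log2 fold change −0.72, adjusted p = 2.94e-07 in edgeR) and Socs1, an inhibitor of JAK kinases (log2 fold change −1.47, adjusted p = 7.69e-05 in edgeR). Against lipid, where 1.26% of all genes were lower and 1.32% higher, both agents gave 1 lower, Usp18 (log2 fold change −0.39, adjusted p = 0.00290 in edgeR), and 2 higher, Irf2 (log2 fold change 0.22, adjusted p = 0.0339 in edgeR) and Socs3 (log2 fold change 0.41, adjusted p = 0.00501 in edgeR). Between both agents and itaconate, 10 were lower and 2 higher, beside 23.5% of all genes each way. Of 12 genes of the ubiquitin-like conjugation machinery that places these GTPases on membranes, 0 were called with itaconate alone or with lipid present, and 4 were higher and 5 lower with lipid alone, where 23.8% of all genes were higher and 23.7% lower.

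**Figure D5:**
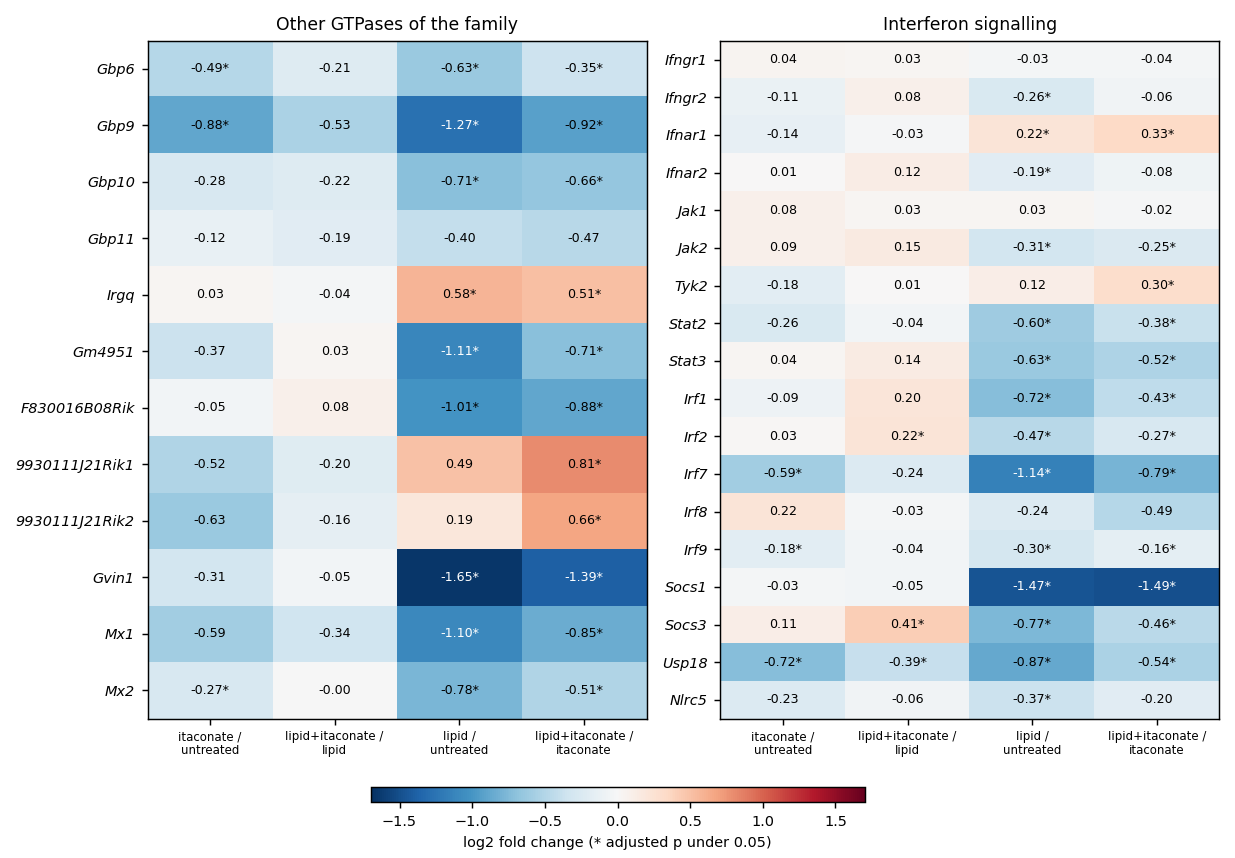
Log2 fold changes (colour and printed value, blue lower and red higher) of the tested genes of 2 lists, other GTPases (left) and interferon signalling (right). The columns are 4 comparisons, and an asterisk marks an adjusted p under 0.05. Usp18 is lower in all 4 columns, while Ifngr1 and Jak1 have no asterisk in any.

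Other cell types present in the cultures could not be separated in these bulk libraries, where fewer cells of a type and less RNA per cell cannot be told apart. Of 7 macrophage and Kupffer cell markers tested, 1 was lower with itaconate alone, Cd68 (log2 fold change −0.24, adjusted p = 0.0108 in edgeR). Another 1 was higher, Lyz2 (log2 fold change 0.50, adjusted p = 0.0166 in edgeR). Among all genes, 2.95% were lower and 1.96% higher. With lipid, where the GTPases were lower, 3 of the 7 markers were lower and 1 higher, beside 23.7% and 23.8% of all genes. Marco went from 10.2 ± 1.66 to 6.03 ± 1.29 CPM (SD, n = 4, log2 fold change −0.76, adjusted p = 0.00205 in edgeR), Cd5l from 13.6 ± 1.03 to 7.85 ± 1.57 CPM (log2 fold change −0.81, adjusted p = 0.000341 in edgeR) and Adgre1 from 2.19 ± 0.696 to 1.2002 ± 0.106 CPM (log2 fold change −0.82, adjusted p = 0.00521 in edgeR). Cd68 was the one that was higher (log2 fold change 0.43, adjusted p = 5.36e-06 in edgeR). Between both agents and itaconate, 6 of the 7 were lower, beside 23.5% of all genes each way. Cd68 was again higher (log2 fold change 0.58, adjusted p = 4.37e-07 in edgeR). Between both agents and lipid, 0 of the 7 passed the threshold in edgeR, beside 2.58% of all genes. Clec4f and Csf1r had an unadjusted p under 0.05 there. The sum of the macrophage markers, which is mostly Cd68 and so follows that gene, ran from 232 to 328 CPM with lipid against 181 to 289 CPM in untreated cells. In itaconate-treated cells this sum was 160 to 245 CPM. The cholangiocyte sum, chiefly Spp1, ran from 600 to 1171 CPM in untreated, 573 to 1048 CPM in itaconate-treated and 336 to 609 CPM in lipid-treated cells. The part of these cell types in the results was not tested.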

How the data were processed

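The authors trimmed reads with cutadapt 1.18, aligned them to mm10 with STAR 2.7.0f and quantified genes with RSEM 1.3.1, per the submitters' processing notes. The deposited values are expected counts per gene, which split reads shared by several genes, so that 73.8% of the values of these 10 genes were not whole, against 5.41% of all values. The kit was stranded. After rounding, the test was run with edgeR 4.0.16 under R 4.3.3 (TMM, quasi-likelihood test, treatment and replicate letter as terms, genes averaging 1 CPM or more, Benjamini-Hochberg, threshold 0.05). For genes below the filter, an unfiltered fit was used. Alternatives used limma 3.58.1, DESeq2 1.42.0, other filters and normalization, and models without single libraries. The fit was tested on simulated counts. The letters come from the sample labels: in all 24 same-letter pairs, deviations from group means correlated at 0.144 to 0.469, so the letters were taken to pair the libraries. Log2 CPM used a prior count of 0.5. Library totals had a median of 27719372. All 55450 identifiers matched GENCODE M21 (GRCm38), and all 10 genes are named. The genes and gene lists were chosen with earlier results of these data known. A gene of the interferon signalling list is not reported here.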

Additional observations from a re-analysis of the deposited data

Results flagged for a closer look

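Iigp1 was flagged in itaconate replicate D, which stood away from the other libraries of its group. It was at 654 CPM there, and the other 3 libraries were at 527 to 537 CPM. The gap was 0.910 of the range of the group, above the 95% critical value of Dixon's test for 4 libraries. This was 1 of 40 groups of 4 libraries examined over the 10 genes, and chance flags about 5% of such groups. Replicate D was also the highest untreated library for Iigp1. Without itaconate replicate D, the log2 fold change of Iigp1 in lipid + itaconate against itaconate was −0.19 (adjusted p = 0.0671 in edgeR, against 0.0171 with it).

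Iigp1 was also flagged because its change with itaconate had opposite directions without and with lipid. It was lower in 4 of 4 letters without lipid and higher in 4 of 4 letters with lipid. In edgeR the fall was not called (adjusted p = 0.107), and the rise was called near the threshold (adjusted p = 0.0441). The difference itself, tested as an interaction in edgeR, was 0.51 on the log2 scale and missed the threshold over all genes (adjusted p = 0.158).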

How the results depend on the processing

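The 10 genes gave 1078 values under alternative settings, of which 986 kept their direction and their side of the threshold, 71 lost a call, 20 gained one and 1 reversed. With no replicate block, 0 of the 9 genes were called for itaconate against untreated, beside 0.197% of all genes. For lipid + itaconate against lipid the number was also 0, beside 0.0771%. For lipid + itaconate against itaconate it was 5, beside 34.2%. For lipid + itaconate against lipid, where 4 genes were called, filterByExpr gave 1, only the 8 libraries compared gave 0, and leaving out each library in turn gave 0 to 6. Of 24 alternatives there, Tgtp1 lost its call in 17, Gbp3 in 16, Iigp1 in 14 and Gbp2 in 4. For the interaction, where 0 were called, DESeq2 gave 3, and leaving out each library gave 0 to 2. The fit with no filter, whose p-values may understate the spread of single genes, gave 8. All 9 calls for lipid against untreated held under every alternative run. Ifi47, lipid + itaconate against lipid, reversed: its log2 fold change ran from −0.22 to 0.038 when libraries were left out, positive without lipid replicate B. The cause of these changes was not tested, and with only 8 libraries fewer samples inform the spread. Normalization by RLE changed no call. Depth limits Tgtp2, at 4 to 55 counts a library.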
